A study of Drosophila melanogaster with 12 samples.

Results

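Asf1, esc, D1, Gnf1 and vtd are 5 Drosophila melanogaster genes whose proteins package, silence, copy or hold together chromosomes. They were chosen by gene symbol, and they are 5 of the 1457 genes that appear in at least 1 of 4 deposited tables of 3′ end extensions in testis RNA. Each table sets 1 group of mitotic germ cells against meiotic germ cells, and lists a selection of genes, between 618 and 751. The extension is a stretch at the 3′ end of a gene, and its share is the extension level divided by the level of the gene. Asf1 is listed in all 4 tables, esc and Gnf1 in 3 each, and D1 and vtd in 2 each.

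Meiotic germ cells (SC) and mitotic germ cells (SG) came from wild-type testes by laser dissection, with 3 libraries each. The other mitotic groups were whole testes, with 2 libraries each, of the genotypes tut3 (SG-tut), bamBG/bamΔ86 (SG-bam) and bgcn20093/bgcnQS2 (SG-bgcn). Germ cells without tut, bam or bgcn stay in mitosis and do not become spermatocytes, so these testes hold mainly mitotic germ cells, together with the somatic cells of the organ. Libraries from dissected cells were made with a kit for very small RNA amounts, and libraries from mutant testes with a standard mRNA kit after Trizol extraction. Genotype, dissection and kit therefore cannot be told apart between SC and the mutants, whereas SC and SG share dissection and kit. In these bulk samples, fewer cells of a type and less RNA per cell cannot be told apart either.

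A messenger RNA ends where its precursor is cleaved and a poly(A) tail is added, and many genes carry several such sites. Use of a distal site lengthens the 3′ untranslated region (3′ UTR), where RNA-binding proteins and small RNAs act on stability and translation. In the Drosophila male germline the change from mitotic spermatogonia to spermatocytes brings a broad change of transcription and of the chromatin machinery.

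The tables hold group averages only, yet the extension levels kept their full precision, and the counts of the single libraries could be read back from them. Level multiplied by length in bases was an exact sum of whole multiples of 1 step per library. In SC, all 1854 extension values above 0 and of at most 1000 counts had exactly 1 such solution, and the same held for every value of that size in the mitotic groups. A library's level multiplied by bases rose by between 3.08 and 3.45 per count in SC, by 4.40 to 5.81 in SG and by 6.08 to 6.99 in the mutant groups. The values below are therefore given per library, in ascending order of that step, which cannot be matched to the replicate numbers of the labels. Whether a count stands for a read or a fragment is not given in the sources used here. Nothing says that the libraries came from separate flies, so their spread may be technical.

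The 5 extensions differ in where they lie on the dm6 genome. The asf1 extension starts at 3L:19620033 on the plus strand and ends between 19620262 and 19620362, inside the gene (3L:19618894-19620398) and inside its own annotated 3′ UTR, 11 bases past the end of a shorter transcript. The other 4 extensions lie past the annotated gene. Gnf1 (3R:4906622-4910081, plus strand) has its extension at 3R:4910102-4910551 in the SG table, which ends 1 base before the 5′ end of Cdep on the same strand, and the SG-tut and SG-bgcn tables stop at 4910321. The vtd extension starts at 3L:27158040, past the gene at 3L:27136525-27157999 on the plus strand, and touches no other annotated gene.

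Both genes on the minus strand have extensions that run into a neighbour transcribed in the same direction. D1 (3R:9238083-9240654) has its extension at 3R:9233593-9238072 in the SG table, where 4090 of its 4480 bases lie in pum, the gene of a translational repressor, and 1356 of them in annotated pum exons. In the SG-bam table it covers 3R:9235213-9238072, with 2470 of 2860 bases in pum and 284 in its exons. The esc extension (2L:11826894-11827153, past the gene at 2L:11827204-11829405) lies wholly within an intron of Pde1c, a cyclic nucleotide phosphodiesterase gene. By position, signal of the D1 extension therefore cannot be told apart from pre-mRNA or mRNA of pum over the bases they share. Signal of the esc extension likewise cannot be told apart from pre-mRNA of Pde1c.

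**Figure D1:**
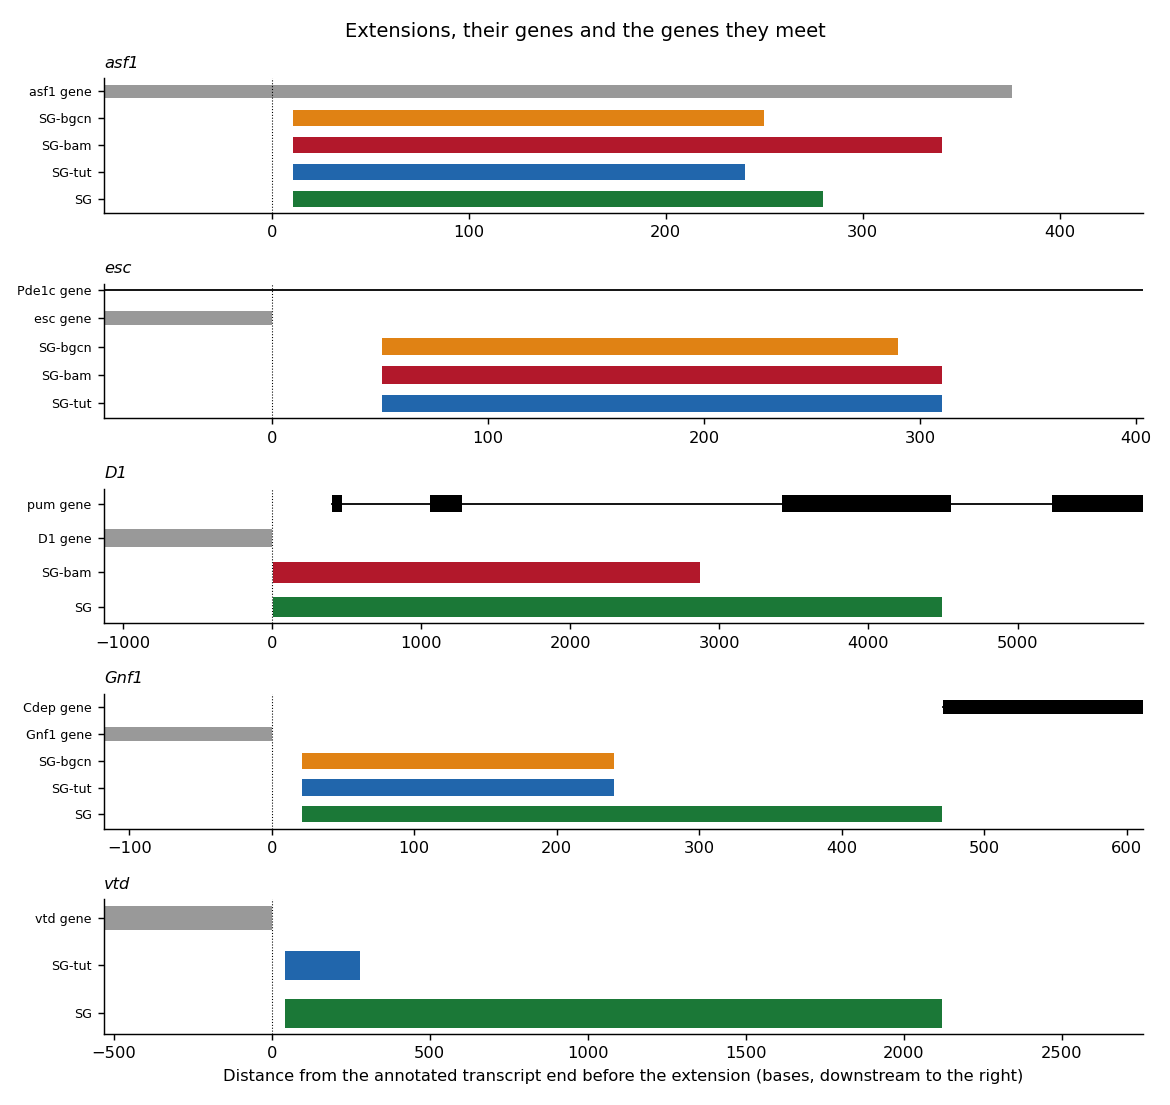
Extension of each gene in each table that lists it, as distance in bases from the annotated transcript end that precedes it (horizontal axis, downstream to the right). Coloured bars are extensions, grey bars the genes themselves, and black boxes and lines exons and introns of neighbours. The D1 extension is the longest at 4480 bases. The far end differs between tables for all 5 genes, from 20 bases for esc to 1620 bases for D1 and 1840 bases for vtd.

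Extensions of all 5 genes were higher in the mitotic groups wherever they were listed, which for esc were whole mutant testes only. In 14 of 14 pairs of gene and table, every mitotic library had a higher extension level than every SC library. The same held for 90.6% of 737 listed SG extensions with recovered counts, 73.6% of 613 in the SG-tut table, 76.9% of 619 in the SG-bam table and 75.5% of 607 in the SG-bgcn table, so such separation was usual there. By the FDR of the authors' deposited table, at 0.05 or less, the share rose in SG for asf1, D1, Gnf1 and vtd (4 of 4 listed), in SG-tut for asf1, esc and vtd (3 of 4), in SG-bam for asf1, esc and D1 (3 of 3) and in SG-bgcn for asf1, esc and Gnf1 (3 of 3). The same call was made for 88.5% of all genes in the SG table. The corresponding background was 71.9% in the SG-tut table, 73.5% in the SG-bam table and 71.0% in the SG-bgcn table, so the members' counts do not stand apart from the tables they come from. All 4 tables share the same SC libraries, and their results are not independent of each other.

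**Figure D2:**
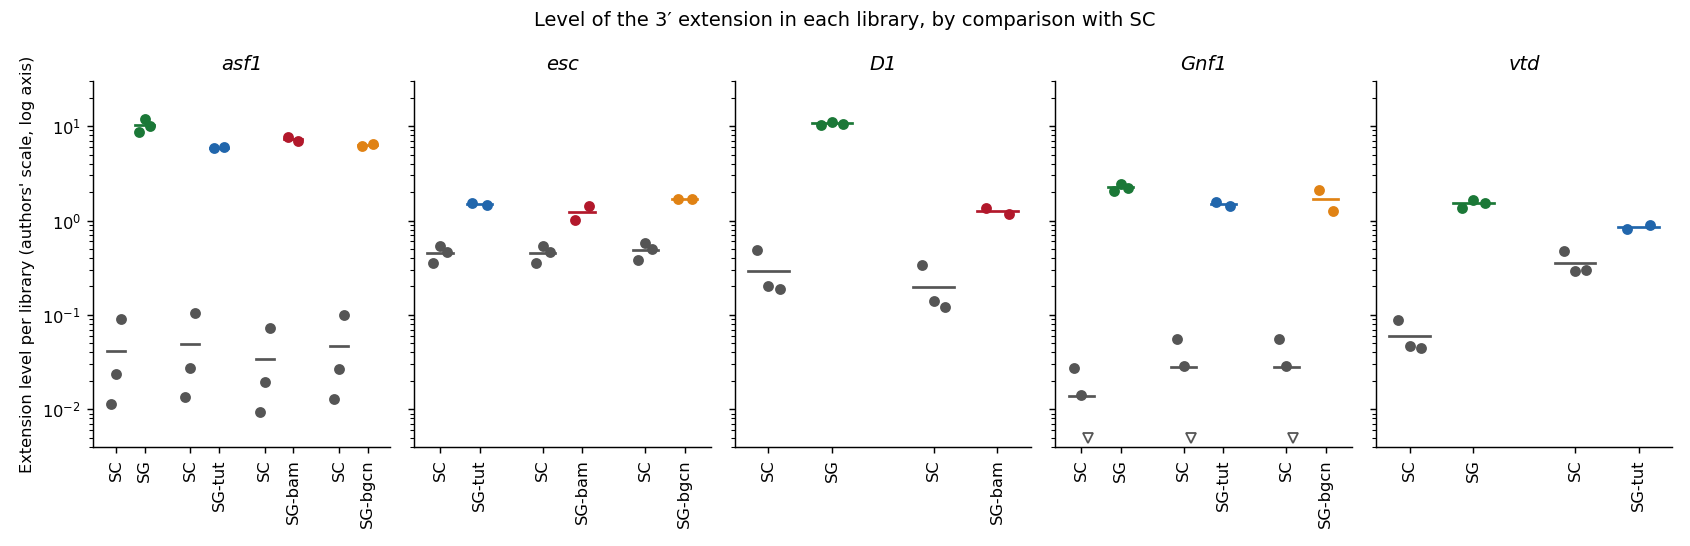
Extension level (log axis, authors' unit) in every library, 1 panel per gene and 1 pair of columns per table, with SC beside the mitotic group. Points are libraries and short lines group means, and an open triangle at the bottom stands for the SC library with 0 counts in the Gnf1 extension. Mitotic points lie above SC points in all 14 pairs, as they do for 73.6% to 90.6% of all listed extensions with recovered counts, with the widest gap for asf1 and the narrowest for vtd in SG-tut.

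Asf1 is the chaperone that hands histones H3 and H4 to chromatin assembly behind the replication fork. Both its gene level and its extension level were higher in the mitotic groups. The extension held 1, 2 and 7 counts in the SC libraries, against 535, 624 and 466 in SG. Per library, levels were 0.0114, 0.0236 and 0.0895 in SC and 8.72, 11.9 and 10.03 in SG. The SC libraries were all near 0, and the lowest SG library stood 97.4-fold above the highest SC library. Mean levels were 0.0415 ± 0.0421 (SD, n = 3) in SC and 10.2 ± 1.61 (SD, n = 3) in SG, a 246-fold difference, and the exact two-sided permutation test gave p = 0.100, the smallest that 3 against 3 libraries allow.

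The mutant testes gave asf1 values of the same order. SG-tut libraries held 210 and 211 counts at levels of 5.90 and 5.96, which was 122-fold above SC over the same 230 bases. SG-bam libraries held 418 and 331 counts at levels of 7.71 and 7.02, 217-fold above SC over 330 bases. SG-bgcn libraries held 241 and 246 counts at levels of 6.11 and 6.52, 135-fold above SC over 240 bases. Replicates of a mutant lay close to each other, and none came near SC. Each of these 2 against 3 comparisons, here and for the other genes, gave an exact two-sided permutation p = 0.200, the smallest that this design allows.

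Because all asf1 extensions share a start, the SC counts could be placed along it. All 10 SC counts lay in the first 230 bases, for which a Poisson 95% interval runs from 4.80 to 18.4, and bases 271 to 330 held 0, which allows an SC level of up to 0.0576. Of the 10 counts, 7 came from 1 SC library. Without that library the log2 fold of the extension level was 9.19 in SG in place of 7.94. It was 8.18 in SG-tut in place of 6.93, 9.01 in SG-bam in place of 7.76 and 8.33 in SG-bgcn in place of 7.08.

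The level of the whole asf1 gene, in the authors' deposited table, was 18.16 in SC and 162.58 in SG, 117.84 in SG-tut, 157.26 in SG-bam and 146.44 in SG-bgcn. The gene level thus had a log2 fold of 2.70 to 3.16, the only member with a gene fold above 1 on that scale. Its share of 6.29% in SG compared with 0.229% in SC in the authors' deposited table, a log2 fold of 4.78 with an FDR of 3.67e-26. For the mutants the mitotic share in the authors' deposited table was 5.03% in SG-tut (FDR 7.55e-06), 4.68% in SG-bam (FDR 4.47e-10) and 4.31% in SG-bgcn (FDR 1.66e-06). By the fold of its extension level in SG, asf1 ranked 7 among the 751 genes of the authors' deposited table, and its rank was 65 of 627 for SG-tut, 44 of 638 for SG-bam and, with SG-bgcn, 62 of 618.

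D1 is an AT-hook protein that binds satellite DNA and gathers pericentromeric heterochromatin. Its extension was higher in SG and SG-bam, while its gene level was between 299.57 and 443.49 in SC, SG and SG-bam by the authors' deposited table. The SG-length extension held 710, 285 and 246 counts in SC, at levels of 0.488, 0.202 and 0.190. In SG it held 10435, 9698 and 8193 counts, at levels of 10.3, 11.2 and 10.6. One SC library stood above the other two, and the SG libraries lay close together. The difference was 36.4-fold, with an exact two-sided permutation p = 0.100. Without that SC library the log2 fold was 5.77 in place of 5.19.

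In SG-bam the D1 extension was listed over 2860 bases only. The folds for SG and SG-bam thus refer to different stretches and were not compared. Over those 2860 bases the SC libraries held 311, 126 and 101 counts, at levels of 0.335, 0.140 and 0.122, and the SG-bam libraries 632 and 480 counts, at levels of 1.35 and 1.17. The groups did not overlap, and the fold was 6.33, or 3.26 in place of 2.66 on the log2 scale without the SC library of highest level. SC signal was not uniform along the stretch, since its level was 0.199 in the first 2860 bases and 0.460 in the next 1620 bases. Every SC library held more counts in the distal 1620 bases (399, 159 and 145) than in the longer proximal piece. Pum exons cover 284 of the first 2860 bases and 1356 of the whole 4480, so most of their bases lie in the distal piece. Their part in the SC signal was not tested.

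The gene level of D1 in the authors' deposited table was 337.98 in SC, 443.49 in SG and 299.57 in SG-bam, log2 folds of 0.39 and -0.17. Its share stayed small, and by the authors' deposited table it reached 2.41% in SG from 0.0867% in SC (FDR 3.60e-15). Over the shorter SG-bam stretch it reached 0.420% from 0.0588% in SC by the authors' deposited table (FDR 0.0372), a call that a limit of 0.01 would not keep. Pum itself is not listed for SG. Its gene level in the authors' deposited table was 5.47 in SC against 43.25 in SG-tut, 48.65 in SG-bam and 41.6 in SG-bgcn, and its part in the D1 extension was not tested.

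Esc is a WD40 subunit of Polycomb repressive complex 2, which methylates histone H3 at lysine 27. Its extension level was between 2.69-fold and 3.41-fold higher in the mutants. The gene level given for esc, which cannot be told apart from that of Pde1c, was lower there than in SC. In SC the 260-base extension held 30, 44 and 35 counts, at levels of 0.355, 0.538 and 0.465. SG-tut libraries held 61 and 58 counts, at levels of 1.52 and 1.45, and were 3.28-fold above SC. SG-bam libraries held 43 and 53 counts, at levels of 1.01 and 1.43, and were 2.69-fold above SC. The lowest SG-bam library was 1.87-fold above the highest SC library, so the groups lay apart by less than for asf1.

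For SG-bgcn the esc extension was 20 bases shorter. Its libraries held 66 and 63 counts at a level of 1.67 in both, and SC had levels of 0.385, 0.583 and 0.504 over the same 240 bases, a 3.41-fold difference. All 109 SC counts fell in those 240 bases. No single library moved any of the 3 folds by more than 1.5 times.

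The esc share was the highest of the members in both SC and the mutant testes. In the authors' deposited table it was 4.95% in SC against 37.5% in SG-tut (FDR 7.92e-06) and 44.1% in SG-bam (FDR 1.21e-06). Over the SG-bgcn stretch, SC had 5.37% and SG-bgcn 38.6% by the authors' deposited table (FDR 5.51e-06). Both terms of the share differed, because the esc gene level in the authors' deposited table was 9.14 in SC and 3.96 in SG-tut, 2.76 in SG-bam and 4.33 in SG-bgcn. Its log2 share fold of 2.85 to 3.15 therefore exceeded its log2 extension fold of 1.43 to 1.77. Pde1c, which contains esc, is listed for SG-bgcn with the same gene levels, 9.14 and 4.33, so the level that divides the esc extension cannot be told apart from that of Pde1c.

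**Figure D3:**
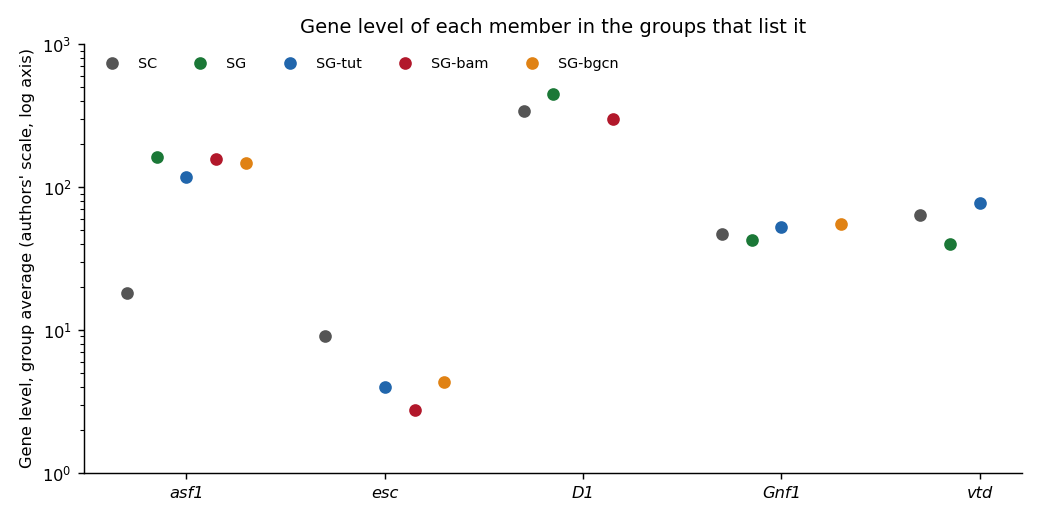
Level of the whole gene (log axis, authors' unit) in SC and each mitotic group, with points for the group averages of the authors' deposited tables. The asf1 points lie at 18.16 in SC and at 117.84 or more in the mitotic groups, the esc mutant points lie below the SC level of 9.14, and D1, Gnf1 and vtd have log2 folds between -0.68 and 0.39. The level given for esc cannot be told apart from that of Pde1c.

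Gnf1 is the large subunit of replication factor C, the clamp loader that places the PCNA ring on DNA. Its extension was nearly absent from SC, while its gene level hardly moved. The SG-length extension held 4, 2 and 0 counts in SC and 212, 213 and 173 in SG. Levels were 0.0273, 0.0141 and 0 in SC and 2.07, 2.44 and 2.23 in SG. The SC library at 0 allows a level of up to 0.0230, and every SG library stood at least 75.8-fold above the highest SC library. The group means differed 163-fold, with an exact two-sided permutation p = 0.100.

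In the mutants the Gnf1 extension was listed at 220 bases, for SG-tut and SG-bgcn. The SC libraries had levels of 0.0559, 0.0289 and 0 there. SG-tut libraries held 54 and 48 counts, at levels of 1.59 and 1.42, 53.1-fold above SC. SG-bgcn libraries held 77 and 44 counts, at levels of 2.13 and 1.27, 60.1-fold above SC. Libraries did not overlap with SC in either, but the SG-bgcn libraries differed more from each other than the SG-tut ones.

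All 6 SC counts of Gnf1 (Poisson 95% interval 2.202 to 13.1) lay in the first 220 bases. The next 230 bases held 0, which allows an SC level of up to 0.0150. Without the SC library with 4 counts, the log2 fold of the extension level was 8.31 in SG in place of 7.35, 6.70 in SG-tut in place of 5.73 and 6.88 in SG-bgcn in place of 5.91.

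By the authors' deposited table the Gnf1 share was 5.26% in SG against 0.0296% in SC, a log2 fold of 7.43 with an FDR of 2.27e-13, the highest share fold of the members. The SG-bgcn share was 3.11% against 0.0605% in SC by the authors' deposited table (FDR 0.0422). SG-tut had 2.87% against the same 0.0605% in the authors' deposited table, with an FDR of 0.0578 that missed the limit. The difference between SG-tut and SG-bgcn was not tested, and their log2 share folds of 5.55 and 5.66 were close. The gene level in the authors' deposited table was 46.78 in SC and 42.8 in SG, 52.33 in SG-tut and 54.68 in SG-bgcn, log2 folds between -0.13 and 0.23. Cdep, which begins right after the SG extension, had a gene level of 11.02 in SG against 6.17 in SC by the authors' deposited table, and its part was not tested.

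Vtd is the Drosophila Rad21, the kleisin subunit that closes the cohesin ring around sister chromatids. Its extension was long and sparse in SG and short in SG-tut. Over 2080 bases the SC libraries held 60, 31 and 27 counts, at levels of 0.0887, 0.0474 and 0.0448. SG libraries held 640, 667 and 550 counts, at levels of 1.35, 1.66 and 1.54. The SG libraries lay together and well above all of SC, with a 25.1-fold difference of means and an exact two-sided permutation p = 0.100.

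The SG-tut extension of vtd covers the first 240 bases only, and there the difference was 2.39-fold, the smallest of the 14. SC libraries held 37, 22 and 21 counts, at levels of 0.474, 0.291 and 0.302, and SG-tut libraries 30 and 33, at levels of 0.808 and 0.893. The lowest SG-tut library was 1.70-fold above the highest SC library. SC signal was concentrated near the gene: 80 of its 118 counts lay in the first 240 bases, at a level of 0.356, and 38 in the next 1840 bases, at a level of 0.0218. The folds for SG and SG-tut thus refer to different stretches and were not compared.

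By the authors' deposited table the vtd share was 3.81% in SG against 0.0949% in SC (FDR 7.94e-14). Over the short stretch it was 1.11% in SG-tut against 0.560% in SC by the authors' deposited table (FDR 2.59e-07). The gene level in the authors' deposited table was 63.57 in SC, 39.76 in SG and 76.89 in SG-tut, log2 folds of -0.68 and 0.27. The SG share fold of 5.31 on the log2 scale therefore holds a lower gene average as well as a higher extension average.

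**Figure D4:**
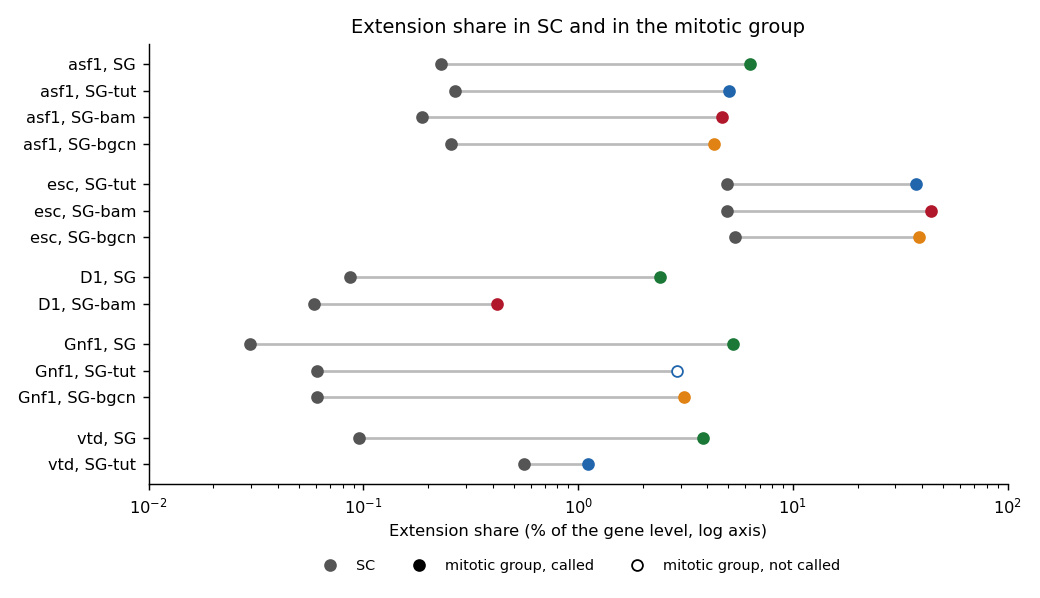
Extension share (percent of the gene level, log axis) in SC and in the mitotic group of each table, from the authors' deposited tables, with grey points for SC, filled coloured points for mitotic groups with a called share, and 1 line per gene and table. Shares run from 0.0296% (Gnf1, SC) to 44.1% (esc, SG-bam), and the open circle is Gnf1 in SG-tut, whose FDR of 0.0578 missed the limit.

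Set beside all listed genes, the members lay on both sides of the median fold in the mutant tables and above it in the SG table. The median log2 fold of the extension level was 4.46 over the SG table, and asf1, Gnf1, D1 and vtd had 7.94, 7.35, 5.19 and 4.65. It was 2.73 for SG-tut, where asf1 and Gnf1 lay above it at 6.93 and 5.73, and esc and vtd below it at 1.71 and 1.26. For SG-bam the median was 3.10, against 7.76 for asf1, 2.66 for D1 and 1.43 for esc. For SG-bgcn it was 3.12, against 7.08 for asf1, 5.91 for Gnf1 and 1.77 for esc. Median gene log2 folds of these tables were between 0.32 and 0.47. The asf1 gene folds lay far above them. The folds of the gene level given for esc, which cannot be told apart from that of Pde1c, lay below.

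Few other genes of the same machinery were listed. Of 101 other genes in lists for histone chaperones, Polycomb proteins, heterochromatin, replication, cohesin and condensin, 4 were in the SG table, 2 in SG-tut, 3 in SG-bam and 2 in SG-bgcn. All of them had a higher share in the mitotic group at an FDR of 0.05 or less in the authors' deposited table, and 0 had a higher share in SC. With so few genes, and with the 88.5%, 71.9%, 73.5% and 71.0% of all listed genes called the same way, these counts do not stand apart either. No other chaperone and no other cohesin gene was listed, nor any condensin gene.

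Among the Polycomb genes, jing and pho accompanied esc. Jing, a zinc finger protein that works with Polycomb repressive complex 2, was listed in all 4 tables, with a share by the authors' deposited table of 100% in SG against 5.39% in SC (FDR 5.68e-78), and 36.4% to 40.0% in the mutants. By the authors' deposited table its gene level was as low as 3.14 in SG and 0.98 in SC. Its extension level in SG, 6.25, was above its gene level, so the share of 100% was capped. Pho, which recruits Polycomb complexes to DNA, had shares in the authors' deposited table of 0.911% in SG-tut (FDR 4.60e-06), 1.10% in SG-bam (FDR 2.68e-06) and 1.05% in SG-bgcn (FDR 1.78e-19), against 0.0749% to 0.115% in SC. Pho also had a lower gene level in the mutants, 47.13 to 51.95 against 132.73 in SC in the authors' deposited table. The level given for esc was lower too, but cannot be told apart from that of Pde1c.

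The heterochromatin genes HP1b and G9a were listed for SG alone. HP1b, a heterochromatin protein 1 family member, had a share of 12.9% in SG against 0.497% in SC by the authors' deposited table (FDR 1.06e-11). G9a, a histone H3 lysine 9 methyltransferase, had 88.2% in SG against 3.09% in SC by the authors' deposited table (FDR 1.73e-29). DNApol-alpha50, the primase subunit that makes RNA primers, had 2.92% in SG (FDR 0.0301) and 100% in SG-bam (FDR 5.08e-49) against 1.97% in SC by the authors' deposited table. The share of 100% was capped, as the extension level of 25.0 in SG-bam was above the gene level of 19.79.

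The genes with patterns nearest to each member were sought by Euclidean distance over log2 folds of gene and extension levels, in the tables that list the member. Nearest to asf1 over 4 tables were RpL37a (distance 1.43), Dsp1 (1.80) and wdb (2.67), of 132 candidates. Nearest to esc over 3 tables were CLIP-190 (1.01), CG10979 (1.04) and pho (1.12), of 254. The gene folds behind these esc distances cannot be told apart from those of Pde1c. D1 was nearest to Cdk12 (1.20), ben (1.25) and simj (1.45) over 2 tables and 226 candidates. Gnf1 was nearest to Eaf (1.39), kirre (1.56) and Sec10 (1.59) over 3 tables and 163 candidates. Vtd was nearest to CG7956 (1.18), Rtnl1 (1.26) and tacc (1.34) over 2 tables and 223 candidates.

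Markers that the tables list bear on the labelled cell types. The spermatocyte regulator aly had a gene level of 72.72 in SC against 14.12 in SG, 23.35 in SG-bam and 18.21 in SG-bgcn in the authors' deposited table, and it was the only 1 of 12 spermatocyte markers listed. The mitotic phosphatase gene stg had 0.57 in SC and between 19.26 and 26.1 in the mitotic groups of the authors' deposited table, and 2 to 4 of 8 spermatogonial markers were listed per table. Among the other listed spermatogonial markers, mei-P26 and tut went the other way in SG. The authors' deposited table gives mei-P26 at 11.38 against 25.64 in SC and tut at 44.16 against 87.25. AGO3 was slightly higher in SG, at 49.39 against 41.69 in SC by the authors' deposited table. In the mutants AGO3 had 109.96 to 145.42, and mei-P26 had 40.42 in SG-bam and 30.36 in SG-bgcn, by the authors' deposited table. Of 7 hub and cyst cell markers the SG table listed 3, SG-tut 0, SG-bam 1 and SG-bgcn 2, among them zfh1, at 11.26 in SG against 2.7 in SC by the authors' deposited table. From the same list dally was far lower in the mitotic groups that list it, at 5.13 in SG and 0.15 in SG-bgcn against 138.77 in SC. CadN had 3.21 in SG against 2.34 in SC, all by the authors' deposited table. Tm1, 1 of 5 genes in the muscle list, had 97.18 in SG and 157.86 to 212.92 in the mutants, against 18.18 in SC, by the authors' deposited table. The accessory gland gene Acp95EF had 349.28 in SC and 673.08 to 3979.91 in the mutants in the authors' deposited table. Levels of markers outside the tables were not analysed here, and the part of these cells in the extension levels was not tested.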

How the data were processed

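RNA sequencing of 12 libraries in 5 groups was deposited as 4 tables, each with group averages for SC and 1 mitotic group. Per the submitters' processing notes the tools were TopHat2 2.1.0, Cuffdiff 2.2.1, Cufflinks 2.2.1, DESeq2, Trimmomatic 0.33, FastQC 0.11.3 and CASAVA, on the dm6 build, with no role stated for each. Not given in the sources used here are the strandedness, the rule that chose the listed genes and the test behind the authors' p-values and FDR. The unit of the deposited gene and extension levels is not named either, and they were treated as a score. The deposited log2 folds of gene and extension levels derive from those levels with 1e-05 added. So do the deposited shares, which are fractions printed here as percent and are capped at 1. The deposited log2 share folds differ slightly from the plain ratio of the shares. For Gnf1 in SG the deposited share fold was 7.43, against 7.47 from the uncapped shares.

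The planned fit across genes assumed values per sample. As the tables hold comparisons, calls rest on the authors' FDR at a limit of 0.05, with the direction of the share. Counts per library were recovered from the extension levels as sums of whole multiples of 1 step per library, at a relative tolerance of 1e-14. The method was tested on simulated data, at values below many of those of the members and far below that of D1 in SG. The check for exactly 1 solution covered values of at most 1000 counts. Above it lay asf1 (1625 counts), vtd (1857) and D1 in SG, D1 in SG-bam (1112), and D1 in SC over the SG stretch (1241). Extensions of over 30000 counts in either group, 11 to 19 per table, were left out of the shares of extensions whose libraries did not overlap. For D1 in SG, 1 solution held at a relative tolerance of 1e-14 and 3 at 10 times it, so the split of its counts between SG libraries is less certain. Single values were compared by exact permutation tests (scipy 1.17.1). Poisson intervals and limits at 0 (3 counts) cover counting error only. Depth as total reads is unknown, because only extensions have recovered counts. Positions were set against Ensembl release 115 (BDGP6.54, the dm6 assembly), with Python 3.11.15, numpy 2.4.6, pandas 2.3.3 and matplotlib 3.10.9.

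Members and lists were chosen with earlier results of these data known. Named were all 5 members, every listed gene of the pathway lists and the 3 nearest genes per member. Of the cell type markers, a few were named after their values were seen. Of 8 spermatid markers the SG table listed 1, SG-tut 4, SG-bam 1 and SG-bgcn 2. By the authors' deposited table all had far lower gene levels in the mitotic groups, such as dj at 0.4 in SG-tut against 4725.77 in SC. Fzo had 1.71 in SG against 244.79. The share was called higher in SC for 4 in SG-tut and 1 in SG-bgcn, and higher in the mitotic group for the others. Alternatives were a stricter FDR, a minimum gene level, the direction of the extension level, another pseudocount, no cap and, chosen after seeing the data, leaving out each library. No genome sequence was used, so no motif search was run.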

Additional observations from a re-analysis of the deposited data

How the results depend on the processing

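Every count of calls stayed within 1.5 times its main value at an FDR of 0.01 or less (12 counts) and with gene levels of at least 1 in both groups (12 counts). These 2 settings could only remove calls from a count of higher mitotic shares, so no count could change direction. The direction of the extension level (4 counts) could change no member count either, because every member extension was higher in the mitotic group. At an FDR of 0.01 or less the members called fell from 3 to 2 for SG-bam, where D1 was lost, and from 3 to 2 for SG-bgcn, where Gnf1 was lost. The log2 folds of the members' shares kept their direction in 14 of 14 pairs with a pseudocount of 0.01. They also did in 14 of 14 without the cap, which no member share reached, so that its removal could reverse none. Because every mitotic library lay above every SC library in all 14 pairs, leaving out each library in turn could reverse no fold. It was done on the recovered counts and chosen after seeing the data, and gave 74 log2 folds of extension levels. They ranged from 6.48 to 9.19 for asf1, from 5.15 to 8.31 for Gnf1, from 2.41 to 5.77 for D1, from 1.13 to 5.04 for vtd and from 1.15 to 1.91 for esc. No paired analysis was possible because the recovered libraries carry no replicate number and the gene levels are group averages. The SC counts of asf1 and Gnf1, 10 and 6 over 3 libraries, limit the precision of their folds, and gene levels have no spread between libraries.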
